A study of Homo sapiens with 6 samples.

Results

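Chemokines and cytokines secreted by activated endothelium were followed by name in RNA sequencing values of human umbilical vein endothelial cells (HUVECs). The set held 10 genes: the neutrophil-attracting chemokines CXCL8, CXCL1, CXCL2, CXCL3 and CXCL6, the chemokines CCL2 and CCL20, the granulocyte growth factor CSF3, and IL6 and LIF of the interleukin-6 family. Of these, 7 matched 1 row each among 17588 uniquely named genes, and CXCL6, CCL20 and LIF were not analysed here. HUVECs are primary endothelial cells from the umbilical cord vein. All cells came from a commercial supplier, grew in serum-containing M199 medium with endothelial growth factor and heparin, and were transfected with a lipid reagent, and the labels name no inflammatory stimulus. The groups were cells given the microRNA miR-483 (3 libraries) and cells given 8OH-G miR-483, a form with the oxidised base 8-oxoguanine (3 libraries), with RNA taken on day 2. Neither the arm of the microRNA nor the oxidised position is stated in the labels. They also leave unsaid whether replicates are separate cultures, and p-values then measure only the spread between these libraries, which may be technical. A scramble control was not analysed here, so each difference can come from either form of the microRNA.

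Chemokines are small secreted proteins that bind heparan sulphate on the vessel wall and draw leukocytes through G-protein-coupled receptors. CXCL8 (interleukin-8) and the CXCL1, CXCL2 and CXCL3 group act on neutrophils through CXCR1 and CXCR2, CCL2 acts on monocytes through CCR2, CSF3 drives neutrophil production, and IL6 signals through IL6R and the shared subunit IL6ST to STAT3. In endothelium, transcription of these genes is classically induced through NF-κB and AP-1 sites close to the start of transcription, and many of their mRNAs are short-lived because of AU-rich elements in the 3′ end.

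The promoters of 5 of the 7 genes matched an entry in the RefSeq set (build GRCh38.p14), and they are shown because they show how alike the CXCL promoters are around one short motif. Each stretch runs 5′ to 3′ on the gene's strand from 150 to 21 bases before the annotated start. Capitals mark matches to GGAATTTCC, to the NF-κB consensus (which overlaps it) and to the AP-1 motif TGANTCA. The submitters' processing notes name the build hg19 for the deposited values, and these GRCh38.p14 positions were not used with them.
CXCL8 (chr4:73740419-73740548, plus strand): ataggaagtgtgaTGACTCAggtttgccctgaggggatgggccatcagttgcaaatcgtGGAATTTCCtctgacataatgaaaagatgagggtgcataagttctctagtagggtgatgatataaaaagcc
CXCL1 (chr4:73869243-73869372, plus strand): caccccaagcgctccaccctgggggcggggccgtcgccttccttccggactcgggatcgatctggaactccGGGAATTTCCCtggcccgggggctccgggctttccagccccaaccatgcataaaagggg
CXCL2 (chr4:74099216-74099345, minus strand): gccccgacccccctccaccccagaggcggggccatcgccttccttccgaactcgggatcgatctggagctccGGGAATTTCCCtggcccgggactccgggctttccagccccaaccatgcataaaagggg
CXCL3 (chr4:74038710-74038839, minus strand): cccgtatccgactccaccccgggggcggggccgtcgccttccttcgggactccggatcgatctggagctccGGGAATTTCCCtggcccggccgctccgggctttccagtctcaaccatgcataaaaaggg
IL6 (chr7:22727050-22727179, plus strand): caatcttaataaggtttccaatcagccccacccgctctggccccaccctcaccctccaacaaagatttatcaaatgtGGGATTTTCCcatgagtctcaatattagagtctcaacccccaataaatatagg

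The motif GGAATTTCC, picked after these promoters had been read, began 91 bases before the start in CXCL8, 78 in CXCL1 and CXCL3, and 77 in CXCL2. On either strand of a window from 250 bases before to 50 after the start, it occurred in 0.461% of 35116 promoters. The NF-κB consensus matched CXCL1, CXCL2, CXCL3 and IL6 and 11.3% of all promoters. TGANTCA matched CXCL8 alone of the 5, at 137 bases before the start, and 7.71% of all promoters. The 250 bases before the start were 81.4% identical between CXCL1 and CXCL3 and 70.4% between CXCL1 and CXCL2 in a global alignment, against 42.6% between CXCL8 and CXCL1. A match is a description of letters and was not tied to any level below.

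CXCL1, CXCL2 and CXCL3 also resemble each other in their transcripts, which bears on how far their levels can be told apart. In the longest coding transcripts of GENCODE 29, 5.73% of all 50-base stretches of CXCL1 occurred unchanged in CXCL2 or CXCL3, as did 9.24% of those of CXCL2 and 5.26% of those of CXCL3 in the others of the group. No 50-base stretch of CXCL8 (0 of 1656), CCL2 (0 of 692), CSF3 (0 of 1624) or IL6 (0 of 1478) occurred in another gene, and no 100-base stretch of any of the 7 did. Read length and the handling of reads with several matches are unstated, so small shifts of reads among CXCL1, CXCL2 and CXCL3 cannot be told apart from small levels of CXCL2 and CXCL3.

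The levels below are FPKM, fragments scaled to gene length and library size, a unit inferred from the size of the deposited values and not named in the labels. The depth behind these values is unknown, and counting error could not be given. A filter kept 12216 genes that reached 1 FPKM in 3 or more libraries, which limma tested on log2(FPKM + 1), and 5 of the 7 genes passed that filter. CSF3 passed it through the 8OH-G miR-483 libraries alone, and CXCL8 and CXCL1 reached 1 FPKM in 2 and 1 of the miR-483 libraries, so their selection was not independent of a higher level with 8OH-G miR-483. CXCL2 and CXCL3 were not tested. Values with ± are means and SD of 3 libraries. Endothelial markers identified the cells in both groups: all 8 listed markers had a row, and their summed level ran from 1620 to 1668 FPKM with miR-483 and from 909 to 1108 FPKM with 8OH-G miR-483. Of the 8, 5 were lower with 8OH-G miR-483 at an adjusted p under 0.05 (limma), 3 did not pass and 0 were higher. Over all tested genes, 20.4% were lower and 35.0% higher. In bulk RNA, fewer cells expressing a gene and less RNA per cell cannot be told apart.

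All 7 measured genes were higher in each 8OH-G miR-483 library than in any miR-483 library. Such a pattern was common: 33.1% of 17579 uniquely named genes above 0 showed it, and 39.7% of the tested ones, with 23.6% in the opposite order. The 5 tested genes rose past an adjusted p of 0.05 (limma, Benjamini-Hochberg over 12216 genes), as did 35.0% of all tested genes (55.4% passed in either direction). The sizes differed widely. The ratio of mean levels was 23.4 for CXCL8, 9.09 for CXCL1, 5.01 for CSF3, 2.87 for CCL2 and 1.80 for IL6.

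CXCL8, the main neutrophil attractant of human endothelium, was at 1.02, 0.968 and 1.90 FPKM in the miR-483 libraries and at 29.2, 24.8 and 37.0 FPKM in the 8OH-G miR-483 libraries. The lowest 8OH-G miR-483 library was 13.04-fold above the highest miR-483 library, while libraries within a group differed by at most 1.96-fold. The log2 fold change on the log2(FPKM + 1) scale was 3.77 (SE 0.182, 95% interval 3.35 to 4.20, adjusted p = 2.55e-06, limma). On that scale it was rank 1 of the 12216 tested genes. The rank depends on the pseudocount of 1: with a pseudocount of 0.1 the value was 4.49 for CXCL8 and 5.82 for the gene BCL2A1. With miR-483 its mean level lay above that of 6.66% of tested genes, and with 8OH-G miR-483 above that of 80.9%.

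CXCL1, which shares the receptor CXCR2 with CXCL8, was at 0.863, 0.989 and 1.45 FPKM with miR-483 and at 10.6, 8.00 and 11.5 FPKM with 8OH-G miR-483. Again the groups lay far apart, with a 5.51-fold gap between the nearest libraries. The log2 fold change was 2.39 (SE 0.145, adjusted p = 4.86e-06, limma), rank 15 of all tested genes on the same scale. In both groups the library with the highest CXCL8 was also the library with the highest CXCL1.

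CXCL2 was at 0.331, 0.247 and 0.330 FPKM with miR-483 and at 1.35, 0.801 and 0.870 FPKM with 8OH-G miR-483. It reached 1 FPKM in 1 library, and its 8OH-G miR-483 mean of 1.01 ± 0.300 FPKM (SD, n = 3) sat at the filter. CXCL3 was at 0.177, 0 and 0.0999 FPKM with miR-483 and at 0.624, 0.700 and 0.640 FPKM with 8OH-G miR-483. It stayed under 1 FPKM in all 6 libraries and was too low to read. Both genes were higher in every 8OH-G miR-483 library, at levels where a few reads, or reads shared with CXCL1, could set the value. An exact two-sided permutation test over the libraries gave p = 0.1 for each, the smallest p that 3 against 3 allows.

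CCL2, the monocyte chemoattractant MCP-1, was by far the most abundant of the set. It was at 100.5, 172 and 172 FPKM with miR-483 and at 553, 445 and 276 FPKM with 8OH-G miR-483. The groups did not overlap, but the gap between the nearest libraries was 1.601-fold and the 8OH-G miR-483 libraries themselves spanned 2.00-fold. The log2 fold change was 1.498 (SE 0.320, 95% interval 0.72 to 2.28, adjusted p = 0.00816, limma). With the replicate number as a block its adjusted p was 0.0748 (limma), so CCL2 did not pass there. CCL2 already lay above 96.9% of tested genes with miR-483, and above 99.1% with 8OH-G miR-483. It made up 95.1% to 96.9% of the summed FPKM of the 7 genes in the miR-483 libraries and 82.4% to 91.8% in the 8OH-G miR-483 libraries. The sum of the other 6 genes went from 5.17 to 7.79 FPKM across the miR-483 libraries to between 42.3 and 58.9 FPKM.

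CSF3, the granulocyte colony-stimulating factor, was at 0.595, 0.644 and 0.719 FPKM with miR-483 and at 3.18, 3.78 and 2.85 FPKM with 8OH-G miR-483. No miR-483 library reached 1 FPKM and every 8OH-G miR-483 library exceeded it, with little spread in either group. The log2 fold change was 1.36 (SE 0.098, adjusted p = 1.06e-05, limma). Because the pseudocount of 1 exceeds the miR-483 levels, this scale understates the change: with a pseudocount of 0.1 the value was 2.16.

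IL6, the pleiotropic acute-phase cytokine, was at 2.19, 2.64 and 3.29 FPKM with miR-483 and at 4.25, 4.26 and 6.09 FPKM with 8OH-G miR-483. It showed the smallest change of the tested genes, with a 1.29-fold gap between the nearest libraries. The log2 fold change was 0.66 (SE 0.148, 95% interval 0.32 to 1.00, adjusted p = 0.00527, limma), larger than that of 87.7% of tested genes. Tested against a fold of at least 1.2, its adjusted p was 0.0504 (limma), so IL6 did not pass there. IL6 and CCL2 were the 2 tested genes of the set above 1 FPKM in all 6 libraries.

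Ratios between genes can be read within a library and do not depend on scaling between libraries. CXCL8 and CXCL1 were near parity with miR-483, with ratios of 1.18, 0.978 and 1.31, and CXCL8 exceeded CXCL1 by 2.76, 3.10 and 3.22 with 8OH-G miR-483. CCL2 exceeded CXCL8 by 98.5, 177 and 90.9 with miR-483 and by 18.9, 18.0 and 7.47 with 8OH-G miR-483. CXCL8 over IL6 was 0.467, 0.366 and 0.577 with miR-483 and 6.88, 5.81 and 6.07 with 8OH-G miR-483. In contrast, CCL2 over IL6 was 54.4 ± 9.60 and 93.3 ± 43.5 (SD, n = 3), and there the groups overlapped (exact two-sided permutation p = 0.4). In all, 6 ratios were compared, chosen with the levels known. The other 5 did not overlap, with an exact two-sided permutation p = 0.1, the smallest possible, and 0.12 after Benjamini-Hochberg adjustment over the 6, so none passed. Of these, CXCL8 over CSF3 and CXCL1 over CXCL2 have denominators under 1 FPKM in all 3 miR-483 libraries and are not read further. The ratios given above share this limit in part. As denominators, CXCL1 was at 0.863 and 0.989 FPKM in miR-483 replicates 1 and 2, and CXCL8 at 0.968 FPKM in replicate 2.

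**Figure D1:**
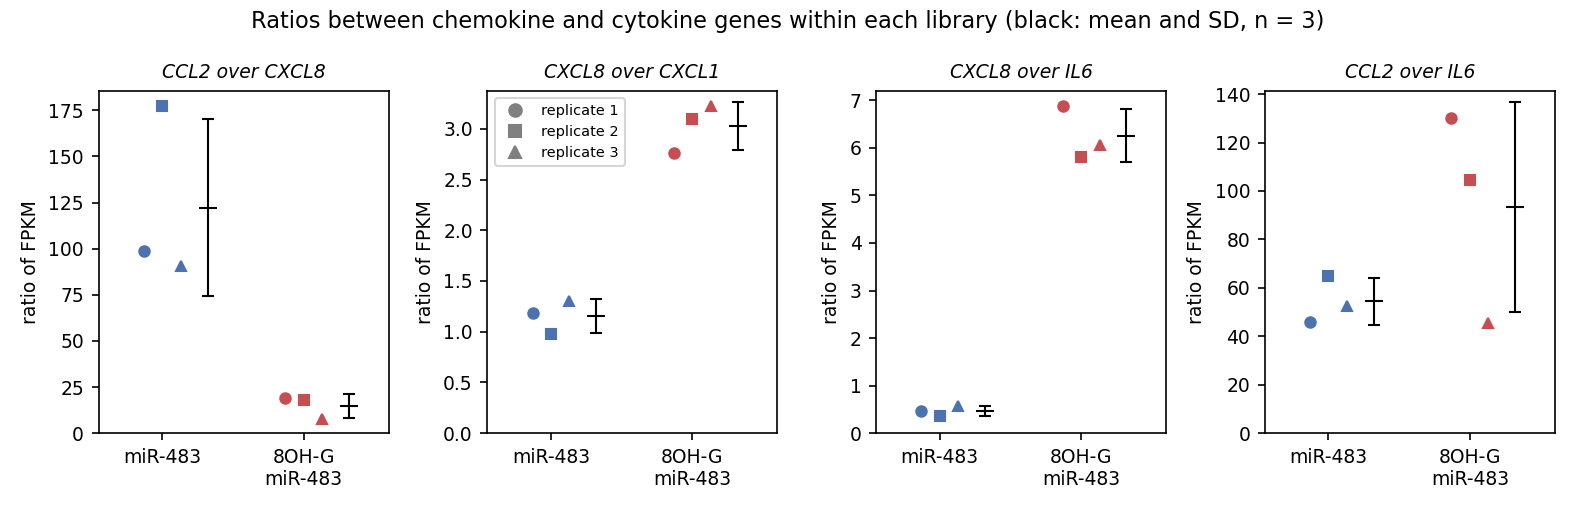
Ratio of FPKM between pairs of genes within each library (vertical axes, starting at 0), by group, with black marks for the mean and SD of 3 libraries. CXCL8 over CXCL1 is higher and CCL2 over CXCL8 lower in all 3 8OH-G miR-483 libraries, while CCL2 over IL6 overlaps between the groups.

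The libraries that were high for a gene differed between genes. Among the 8OH-G miR-483 libraries, replicate 3 was the highest for CXCL8, CXCL1 and IL6 and the lowest for CCL2 and CSF3. Replicate 1 was the highest for CCL2 and CXCL2, and replicate 2 for CSF3 and CXCL3. The spread of CCL2 was therefore not shared by CXCL8. Among the miR-483 libraries, replicate 3 was the highest for CXCL8, CXCL1, CCL2, CSF3 and IL6, and the lowest CCL2 value came from replicate 1.

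The 5 tested genes with the profile closest to CXCL8 over the 6 libraries, by Euclidean distance of centred log2(FPKM + 1) values, were BCL2A1 (distance 1.17), RRM2 (1.28), MCM4 (1.44), UHRF1 (1.47) and MCM2 (1.47). BCL2A1, an apoptosis inhibitor of the BCL2 family, was listed at 0, 0.0856 and 0 FPKM with miR-483 and was at 6.61, 6.34 and 7.62 FPKM with 8OH-G miR-483. The other 4 are genes of DNA replication and its chromatin. CXCL1 ranked 13 in this order, CCL2 317, CSF3 318 and IL6 1372 of 12215 genes. The profiles were centred but not scaled, so this distance mostly follows the size of the rise between the groups. By the log2 fold change alone the ranks were 15 for CXCL1, 241 for CCL2, 307 for CSF3 and 1500 for IL6. Closeness here therefore describes a similarly large rise, and shared regulation was not tested.

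Most of these mRNAs were dense in AU-rich motifs, a property already known for many of them and so not independent of choosing the genes by name. In the longest annotated 3′ untranslated region (UTR) of GENCODE 29, the pentamer ATTTA, the core of AU-rich elements, occurred 9 times in CXCL8, 5 in CXCL1, 10 in CXCL2, 7 in CXCL3, 7 in CSF3 and 6 in IL6. Per kilobase this was 7.08 (CXCL1) to 14.0 (IL6), a density above that of 96.7% to 99.5% of 19133 genes, whose median was 1.48. CCL2 was apart from the rest, with 1 ATTTA, a density of 2.11 and 60.8% of genes below it. The nonamer TTATTTATT, which contains ATTTA, was found in CXCL8, CXCL1, CXCL2 and CXCL3 and in 8.21% of all genes. These counts describe annotated sequence, and their part in the levels was not tested.

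Transcripts of proteins that bind AU-rich elements changed in both directions. Of 14 such genes, all tested, 4 rose and 5 fell. Their median log2 fold change was -0.16, and that of all tested genes was 0.10, of which 35.0% rose and 20.4% fell. ZFP36 (4.48 ± 0.279 to 2.92 ± 0.179 FPKM), ZFP36L1 (59.8 ± 1.81 to 40.1 ± 3.37 FPKM) and ZFP36L2 (29.8 ± 0.907 to 14.2 ± 2.28 FPKM) fell. ARID5A fell from 22.2 ± 1.40 to 8.87 ± 0.439 FPKM, while ELAVL1 rose from 17.2 ± 0.716 to 26.2 ± 2.40 FPKM. HNRNPD (104 ± 6.90 to 165 ± 10.2 FPKM) and KHSRP (89.9 ± 3.998 to 127 ± 3.41 FPKM) also rose. Some proteins of this list promote decay and others stabilise mRNA, and their net effect on the chemokine mRNAs was not tested. ZC3H12C rose and N4BP1 fell by small amounts. The ZC3H12C call was lost without miR-483 replicate 2 and without 8OH-G miR-483 replicate 1 or 3 (adjusted p 0.0529 to 0.0654, limma), and the N4BP1 call without any 1 of the 6 libraries (0.0804 to 0.138). ZC3H12A, the nuclease Regnase-1, was at 3.00 ± 0.298 and 2.39 ± 0.422 FPKM (adjusted p = 0.0898), and passed as lower after median-ratio scaling (0.0325), after quantile normalization (0.0216) and without 8OH-G miR-483 replicate 1 (0.0355). ZFP36L1, KHSRP, ZC3H12C and N4BP1 were named after their values were seen.

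The factors that act at chemokine promoters did not share a direction. Of 22 tested genes of NF-κB, AP-1 and C/EBP factors and their regulators, 6 rose and 8 fell, where 35.0% of all tested genes rose and 20.4% fell. The median change of these 22 genes was 0.01 on the log2 scale, and 0.10 over all tested genes. NFKBIA, the inhibitor of NF-κB and itself an NF-κB target, was at 67.8, 67.0 and 77.2 FPKM with miR-483 and fell to 28.7, 22.2 and 23.0 FPKM, and the feedback inhibitor gene TNFAIP3 was at 0.588 ± 0.143 and 2.35 ± 0.646 FPKM. TNFAIP3 passed the filter through the 8OH-G miR-483 libraries alone, so its selection was not independent of a higher level there. NFKBIZ, which supports IL6 transcription, fell from 9.34 ± 1.22 to 3.22 ± 0.185 FPKM, and RELA fell from 54.7 ± 2.42 to 43.8 ± 2.85 FPKM. The RELA call was lost with a fold threshold of 1.2 (adjusted p = 0.536, limma). Of the AP-1 subunits, FOSL1 (30.8 ± 0.856 to 73.0 ± 10.8 FPKM) and JUN (48.2 ± 1.99 to 78.6 ± 8.00 FPKM) rose and JUND (53.2 ± 1.84 to 20.1 ± 2.64 FPKM) fell. TNFAIP3, RELA and JUN were named after their values were seen.

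Other cytokines went both ways. Of 26 listed, 17 had a unique row and 9 were tested, of which 3 rose and 5 fell (35.0% and 20.4% of all tested genes). Their median log2 fold change was -0.44, against 0.10 for all tested genes. KITLG, the stem cell factor, rose from 1.55 ± 0.134 to 8.10 ± 2.35 FPKM, TNFSF4, the OX40 ligand, from 12.6 ± 0.392 to 33.7 ± 0.944 FPKM and IL32 from 43.2 ± 5.78 to 63.5 ± 9.32 FPKM. TNFSF10, the death ligand TRAIL, fell from 26.7 ± 2.28 to 6.38 ± 1.63 FPKM and TNFSF15 from 82.8 ± 10.9 to 40.1 ± 5.50 FPKM. IL15 fell from 3.31 ± 0.311 to 1.28 ± 0.171 FPKM, and IL11 (1.71 ± 0.298 to 0.989 ± 0.117 FPKM) and CLCF1 (4.396 ± 0.226 to 2.61 ± 0.440 FPKM), both of the interleukin-6 family, fell. With a fold threshold of 1.2 the calls of IL32 (adjusted p = 0.0915, limma) and IL11 (0.179) were lost. IL32, IL15, IL11 and CLCF1 were named after their values were seen. Of 26 other chemokines, 2 had a unique row (CXCL11 and CXCL16), both below the filter. CCL14, whose name stands on repeated rows, was at 71.8 ± 6.34 and 64.4 ± 16.0 FPKM, with an adjusted p of 0.407 (limma) when repeated names were added. In that fit MIF, the macrophage migration inhibitory factor, rose from 22.7 ± 1.52 to 35.9 ± 6.44 FPKM (adjusted p = 0.00287, limma). There 4 of 11 listed chemokines and cytokines were higher and 5 lower, beside 4437 higher and 2608 lower of all 12729 genes in the fit. CCL14 and MIF were named after their values were seen.

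**Figure D2:**
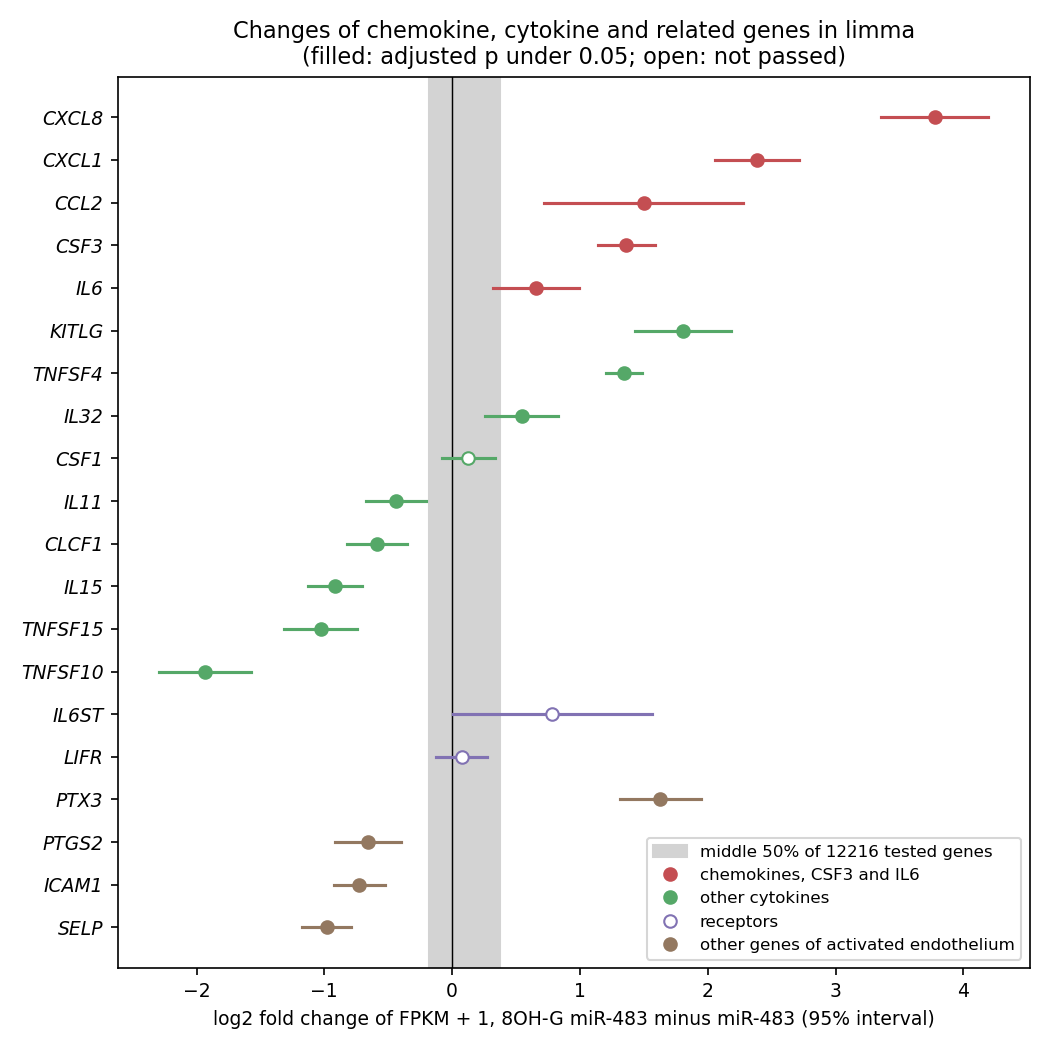
Log2 fold change of FPKM + 1 between the groups (horizontal axis, 8OH-G miR-483 minus miR-483) with its 95% interval for the tested chemokines and cytokines, receptors and the 4 largest changes among other genes of activated endothelium, with the middle 50% of all tested genes shaded. CXCL8 (3.77) and CXCL1 (2.39) lie farthest to the right, and TNFSF10 (-1.93) farthest to the left.

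Of the receptors through which these proteins act, 3 of 10 had a row and neither of the 2 tested passed. IL6ST was at 97.0, 60.5 and 82.8 FPKM with miR-483 and at 124, 96.4 and 211 FPKM with 8OH-G miR-483, where the groups overlapped (adjusted p = 0.0809, limma). Without 8OH-G miR-483 replicate 2 it passed (adjusted p = 0.0404). LIFR was at 1.27 ± 0.156 and 1.39 ± 0.116 FPKM, with a log2 fold change of 0.07 (95% interval -0.13 to 0.28), and IL6R was at 1.07 ± 0.165 and 0.812 ± 0.126 FPKM, below the filter. CXCR1, CXCR2, CCR2, CCR6, CSF3R, ACKR1 and ACKR2 were not analysed here.

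Downstream of the IL-6 receptor, 3 of 10 tested genes rose and 2 fell, close to the shares of 35.0% and 20.4% over all tested genes. SOCS3, a feedback inhibitor induced by STAT3, was at 5.22, 5.13 and 6.93 FPKM with miR-483 and rose to 22.7, 20.003 and 19.7 FPKM, or by 1.70 on the log2(FPKM + 1) scale (SE 0.111, adjusted p = 6.89e-06, limma). STAT3 itself fell from 54.2 ± 2.60 to 43.3 ± 1.68 FPKM, and PIAS3, an inhibitor of STAT3, from 25.01 ± 0.893 to 16.6 ± 0.429 FPKM. The phosphatase gene PTPN11 rose from 25.3 ± 1.76 to 38.3 ± 2.64 FPKM. The STAT3 call was lost with a fold threshold of 1.2 (adjusted p = 0.501, limma), and STAT3 was named after its value was seen.

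Other genes of activated endothelium did not follow the chemokines as a group, with 2 of 6 tested genes higher and 4 lower (35.0% and 20.4% of all tested genes). PTX3, a secreted pattern recognition protein, rose from 69.8 ± 5.84 to 221 ± 42.7 FPKM. The adhesion genes ICAM1 (16.8 ± 0.528 to 9.81 ± 1.11 FPKM) and SELP (3.34 ± 0.183 to 1.2001 ± 0.143 FPKM) fell, as did PTGS2, the inducible cyclooxygenase (15.5 ± 1.77 to 9.51 ± 1.39 FPKM), and the transcription factor gene IRF1 (8.08 ± 0.519 to 5.16 ± 0.560 FPKM). SELE and VCAM1 were not analysed here, and IRF1 was named after its values were seen.

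**Figure D3:**
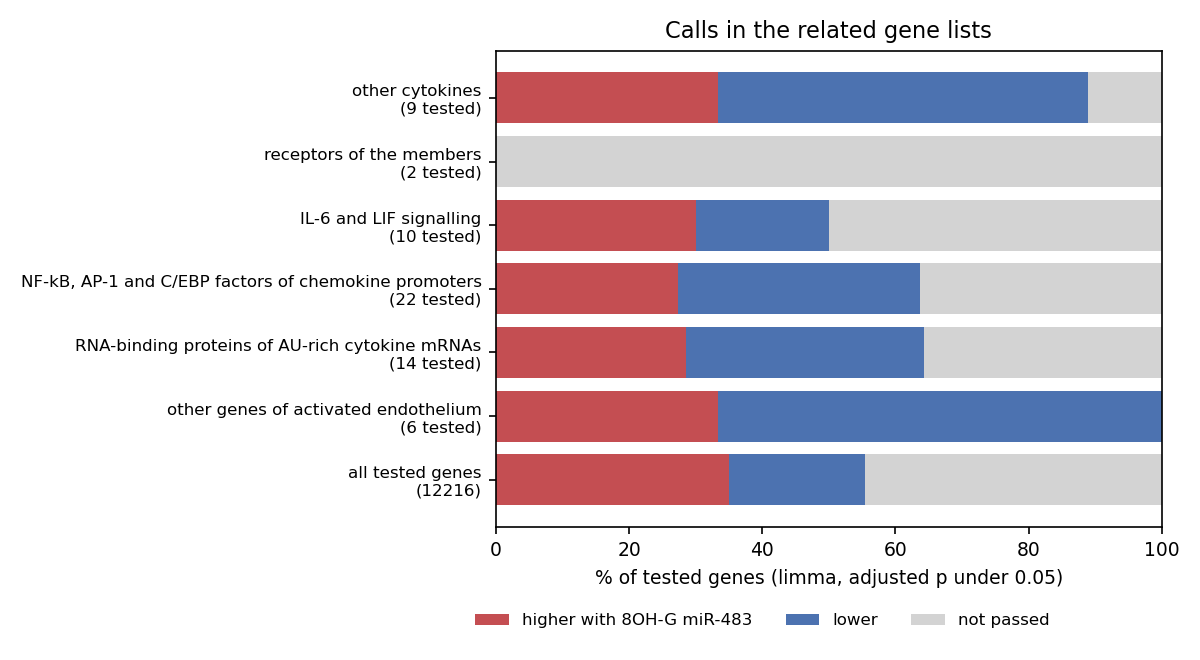
Share of tested genes (horizontal axis, %) that were higher, lower or did not pass in each related list, with all 12216 tested genes in the bottom bar (35.0% higher, 20.4% lower). Both directions occur in every list with a call, and neither of the 2 tested receptors passed.

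Markers of other cells that also make these chemokines were only partly covered. Of 10 leukocyte markers, 2 had a row, and their summed level was 14.2 to 17.7 FPKM with miR-483 and 6.49 to 7.79 FPKM with 8OH-G miR-483. LYZ was at 4.03 ± 0.339 and 0.109 ± 0.0955 FPKM and CD68 at 11.9 ± 1.85 and 7.15 ± 0.760 FPKM, and PTPRC, CD14 and the other 6 were not analysed here. Of 8 mural and fibroblast markers, 5 had a unique row, with a summed level of 4.61 to 4.96 FPKM and 3.52 to 4.45 FPKM. The pericyte marker RGS5, on repeated rows and outside that sum, was abundant in both groups, at 712 ± 114 and 890 ± 109 FPKM (adjusted p = 0.0622, limma, with repeated names added). Of 6 epithelial markers, 3 had a row, with summed levels of 71.0 to 81.6 FPKM and 127 to 144 FPKM, and KRT18, also made by endothelium, carried most of it (61.1 ± 3.76 and 120.5 ± 7.83 FPKM). EPCAM, CDH1 and KRT5 were not analysed here. The part of other cells in the chemokine levels was not tested.

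**Figure D4:**
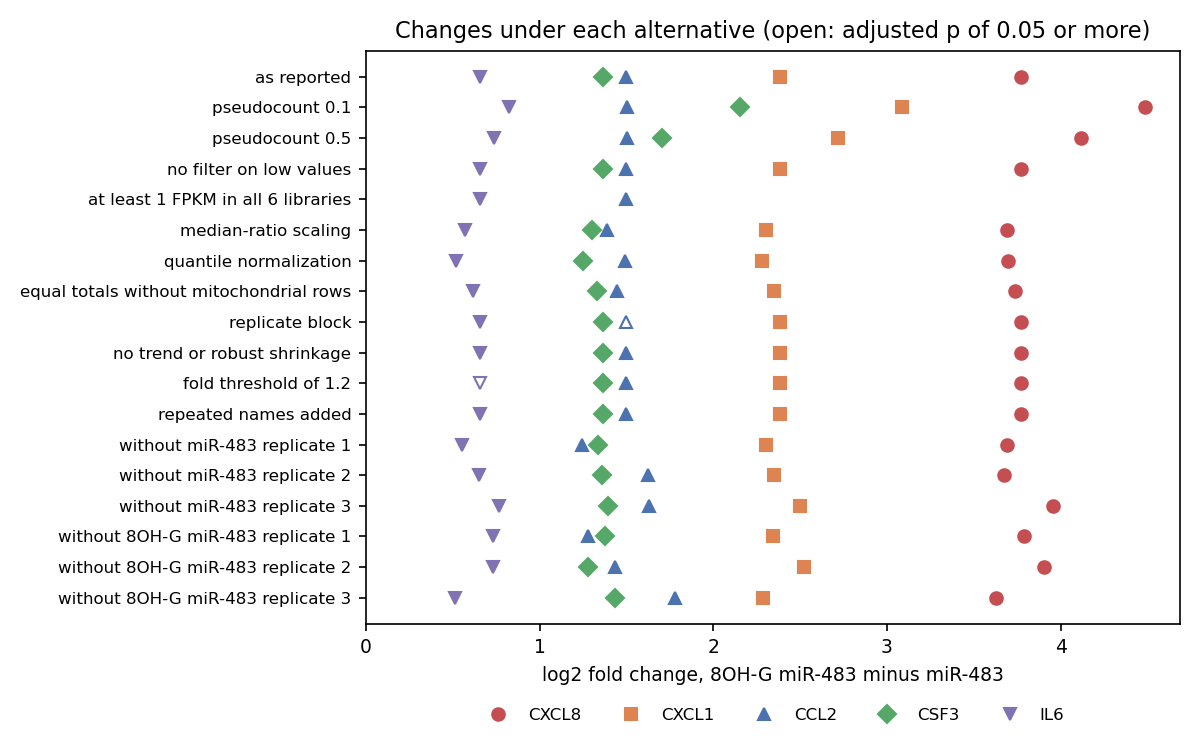
Log2 fold change (horizontal axis, 8OH-G miR-483 minus miR-483) of the 5 tested genes under the reported setting and each alternative (rows), with open symbols where the adjusted p was 0.05 or more. CXCL8 ranges from 3.63 to 4.49, and the open symbols are CCL2 with a replicate block and IL6 with a fold threshold of 1.2.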

How the data were processed

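The 6 deposited files hold 1 value per gene row for 20792 rows. Tools named in the submitters' processing notes, without versions, are STAR, HTSeq, cutadapt and DESeq2, with the build hg19. The values were taken as FPKM made by the authors before they were deposited: no header or label names a unit, and the totals of 1396537 to 1687283 per library exceed what TPM or CPM allow. The totals differed by group, from 1396537 to 1440422 with miR-483 and from 1598260 to 1687283 with 8OH-G miR-483. Mitochondrial rows held 71.3% to 76.6% of each total, so every level depends on how the libraries were scaled. Whole reads were not recovered from low values: at most 19.6% of 1925 low genes fitted a whole-read ratio within 0.02 log2 at the best of 200 depth ratios, against medians of up to 17.7%. Names on several rows (748) were left out. Where repeated names were added or given by name, the highest value among the rows of a name was used in each library. In miR-483 replicate 1 only 14 of those names had 1 value, against all 748 in the other 5 libraries. None of the 7 genes is among them.

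Genes that reached 1 FPKM in 3 or more libraries were fitted on log2(FPKM + 1). The model, limma 3.58.1 run under R 4.3.3, used a trended, robust prior variance and the group alone, and an adjusted p (Benjamini-Hochberg) under 0.05 counted as passing. The fit was tested on simulated data. N-fold values are ratios of mean FPKM. The genes and lists were chosen with earlier results of these data known. Of each other list, the 4 largest changes that passed with groups not overlapping were named, with every receptor and SELE, VCAM1, ICAM1, NFKBIA, ZFP36 and ZC3H12A, and the 5 profiles closest to CXCL8. A few genes that enter the counts of their lists are not reported here by name. Alternatives covered the pseudocount, filters, scaling, a replicate block, the variance model, a fold threshold, repeated names and each library left out. Motifs and shared stretches were computed in Python 3.11.15 and promoter alignments with Biopython 1.88.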

Additional observations from a re-analysis of the deposited data

How the results depend on the processing

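Under 17 alternatives the log2 fold changes of the 5 tested genes stayed positive: 3.63 to 4.49 for CXCL8, 2.28 to 3.09 for CXCL1, 1.25 to 2.16 for CSF3, 1.24 to 1.78 for CCL2 and 0.51 to 0.82 for IL6. CXCL8, CXCL1 and CSF3 passed in each of the 16 alternatives that tested them, and the count of 5 genes held without any 1 library. With at least 1 FPKM required in all 6 libraries the count was 2, because CXCL8, CXCL1 and CSF3 were no longer tested. Without a filter it was 7, as CXCL2 (adjusted p = 0.00278, limma) and CXCL3 (0.000532) entered, and 26.7% of all 17579 genes in that fit were higher. CXCL3 was too low to read and CXCL2 sat at the filter, so their p-values are not read further. For the other chemokines and cytokines, the higher count of 3 became 7 without a filter, where 19 genes were tested, beside the same 26.7% of all genes. Without 8OH-G miR-483 replicate 2, CCL2 had an adjusted p = 0.048. With the replicate number as a block, CCL2 had an adjusted p = 0.0748 and did not pass, IL6ST passed (0.0288), and over all genes 4635 were higher and 2677 lower, against 4279 and 2493. The labels do not say whether the numbers pair the libraries. Deviations of same-numbered libraries correlated at 0.0248, 0.339 and 0.00886, and miR-483 replicate 1 correlated best with another number (0.244). With 3 libraries per group these correlations cannot settle whether the libraries are paired. With a fold threshold of 1.2, 2185 genes were higher and 1126 lower, and IL6 (adjusted p = 0.0504), IL11, IL32, RELA, STAT3, ZC3H12C and N4BP1 did not pass. Median-ratio scaling moved the median of all genes by -0.10 and quantile normalization by -0.11, after which 50.2% and 49.0% of calls were higher, against 63.2%. Scaling to equal totals without mitochondrial rows moved it by -0.05, with 57.3% of calls higher. All 5 genes still passed.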

Other observations

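Several cytokine and related genes below the filter were low in the miR-483 libraries and above that in every 8OH-G miR-483 library. CXCL11, an interferon-inducible chemokine, was at 0.0627, 0 and 0 FPKM and at 0.543, 0.711 and 0.615 FPKM. IL1A, an alarmin that induces chemokines in endothelium, was listed at 0 in the 3 miR-483 libraries and was at 0.225, 0.473 and 0.287 FPKM with 8OH-G miR-483. SOCS1, a feedback inhibitor of JAK signalling, was at 0.235, 0 and 0.247 FPKM and at 2.15, 1.17 and 0.705 FPKM. IL18 went the other way, at 0.404 ± 0.0484 and 0.0592 ± 0.0260 FPKM (SD, n = 3). These genes were picked after their values were seen, and none passed the filter for testing. Over all levels, 33.1% of 17579 genes above 0 in a library were higher in each 8OH-G miR-483 library than in any miR-483 library.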
